A study of Mus musculus with 6 samples.

Results

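Respiratory complex I is described here in the sciatic nerve of mice that lack Srebf-1c, through 42 of the 22180 genes measured. The members are the genes whose symbol is Nduf followed by a, b, c, s, v, ab or af and a number, pseudogenes left out, and that have a probe set carrying this symbol alone. They comprise 34 genes named as subunits and 8 Ndufaf assembly factors. Where a gene had several probe sets, the brightest over all arrays stood for it, which concerned 3 members. Of the complex I genes listed by name, Ndufs6, Ndufb2 and Ndufb4 are left out because they share their probe sets with other genes, and Ndufb1 because no probe set carried its symbol. The members were chosen by name, not by their values.

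Total RNA came from whole sciatic nerves of mice aged 10 months, 3 samples from wild-type littermates and 3 from Srebf-1c KO animals, with 1 Affymetrix whole-transcript array each. Srebf-1c is a form of the transcription factor gene Srebf1 known for driving fatty acid synthesis. The allele, strain and sex were not given in the sources used here, nor was it stated that each sample came from a different animal. A p-value here therefore reflects how far these samples scatter, part of which may be technical. Titles and genotype field name the KO samples as such, but their source field says wild type. Groups follow the titles.

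Complex I is the NADH dehydrogenase of the inner mitochondrial membrane, where electron transfer from NADH to ubiquinone is coupled to proton pumping. Its peripheral arm reaches into the matrix and holds an N module, which oxidises NADH, and a Q module, which reduces ubiquinone, while its membrane arm holds the proton channels. The catalytic core is shared with bacteria and is encoded partly in the nucleus and partly in mitochondrial DNA. Accessory subunits surround the core, and assembly factors help to build the complex without being part of it. In peripheral nerve both axons and Schwann cells depend on mitochondria, and muscle lying beside the nerve is very rich in them.

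The labels were checked first. Srebf1 stood at a log2 intensity of 9.53, 9.55 and 9.70 for wild type against 8.11, 8.06 and 8.04 for KO. It was lower on every KO array, by a log2 difference of -1.52 ± 0.11 (SE), and was the 1 gene of 22180 past an adjusted p of 0.05 (limma adjusted p = 0.0497), which is 0.00451% of genes. The difference lay between -1.56 and -1.46 in the 18 other settings, but the call was kept in 5 of them and lost in 13, where the adjusted p reached 0.764. Of 12 Schwann cell markers 9 could be measured, and their median gene lay at percentile 96.5 of intensity. For the 25 skeletal muscle markers that median was percentile 98.3, and their summed intensity differed widely between arrays: 156984, 58203 and 104497 for wild type against 145793, 84994 and 111713 for KO. For 16 adipocyte markers the sums were 14439, 16605 and 45812 for wild type against 16599, 43228 and 12666 for KO. In whole-nerve RNA, fewer cells of a type and less RNA per cell cannot be told apart.

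Promoters of 4 members are shown because they cover the patterns described below: Ndufa8 and Ndufc1 had the wide spread between arrays that most subunits shared, Ndufaf4 was the assembly factor with the widest SD between replicates when pooled over both genotypes, and Ndufa12 had the largest difference between genotypes. Each window runs from 250 bases before to 50 bases after a RefSeq start site of GRCm38.p6, 5′ to 3′ on the gene's strand, and capitals mark a match to a motif of nuclear respiratory factor 1 (NRF1) or of YY1, a factor that often binds at start sites. The windows are chr2:36049289-36049588 on the minus strand for Ndufa8, chr3:51408906-51409205 on the minus strand for Ndufc1, chr4:24897833-24898132 on the plus strand for Ndufaf4 and chr10:94198785-94199084 on the plus strand for Ndufa12.
Ndufa8: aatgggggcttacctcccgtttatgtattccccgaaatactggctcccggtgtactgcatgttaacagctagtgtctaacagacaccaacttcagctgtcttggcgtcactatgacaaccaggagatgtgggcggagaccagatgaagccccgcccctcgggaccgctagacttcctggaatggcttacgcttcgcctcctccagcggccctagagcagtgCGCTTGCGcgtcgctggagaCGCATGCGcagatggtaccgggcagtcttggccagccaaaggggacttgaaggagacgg
Ndufc1: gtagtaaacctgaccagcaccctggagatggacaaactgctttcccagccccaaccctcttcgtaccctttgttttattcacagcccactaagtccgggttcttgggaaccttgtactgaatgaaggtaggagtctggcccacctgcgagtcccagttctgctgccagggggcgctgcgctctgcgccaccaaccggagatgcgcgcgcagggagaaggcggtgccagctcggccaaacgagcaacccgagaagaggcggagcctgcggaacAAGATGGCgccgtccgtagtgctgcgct
Ndufaf4: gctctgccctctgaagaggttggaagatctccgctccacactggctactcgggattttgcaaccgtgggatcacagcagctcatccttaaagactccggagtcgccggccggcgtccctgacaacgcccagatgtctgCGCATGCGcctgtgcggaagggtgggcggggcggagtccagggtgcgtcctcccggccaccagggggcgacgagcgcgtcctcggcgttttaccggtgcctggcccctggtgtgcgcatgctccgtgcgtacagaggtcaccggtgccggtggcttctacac
Ndufa12: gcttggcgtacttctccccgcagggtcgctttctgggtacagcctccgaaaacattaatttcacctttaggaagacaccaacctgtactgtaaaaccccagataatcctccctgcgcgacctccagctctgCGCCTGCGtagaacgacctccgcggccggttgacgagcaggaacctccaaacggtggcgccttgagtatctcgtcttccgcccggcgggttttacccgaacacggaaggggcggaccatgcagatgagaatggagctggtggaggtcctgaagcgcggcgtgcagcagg

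Among 37 members with a promoter in the RefSeq table, 20 held a match to any of 6 motifs searched on both strands, and no window held more than 2. The NRF1 motif CGCANGCG was found for 11 members, 29.7% of the 37, against 9.22% of all 27025 genes in the table. They were Ndufa5, Ndufa6, Ndufa7, Ndufa8, Ndufa11, Ndufa12, Ndufb10, Ndufs5, Ndufaf2, Ndufaf4 and Ndufaf5, and Ndufa8 and Ndufb10 held 2 such matches each. A longer form, with a G before and a C after these letters, was searched first and was found for 7 members, 18.9%, against 5.19% of all genes. The YY1 motif AAGATGGC was found for 7 other members, Ndufa3, Ndufa9, Ndufb8, Ndufc1, Ndufs4, Ndufs7 and Ndufaf8, which is 18.9% against 3.19% of all genes, and always within the 50 bases after the start. The motif CCGGAAGT of the factor GABP was found for Ndufs3 alone, 2.70% of members against 4.31% of all genes. An E-box, CACGTG, was found for Ndufa7 and Ndufv1, 5.41% against 8.09%. Neither the sterol regulatory element TCACNCCAC, which 1.44% of all genes held, nor the estrogen-related receptor motif TCAAGGTCA, which 0.466% held, had these letters in a window of a member. No match overlapped one to another motif. These matches describe letters and show no binding, and the shares of all genes were not matched to the members for base composition.

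Between genotypes, limma called 0 of the 42 members at an adjusted p of 0.05, with 0.850 as the smallest. The study's own criterion, at least a 1.5-fold change with an unadjusted p under 0.05, was met by 0 members and by 1.19% of all genes. At an unadjusted p under 0.05 alone there were 2 members, Ndufab1 and Ndufb3, both higher in KO, or 4.76% of members where all genes had 5.83%. Of the 34 subunits 17 had a higher and 17 a lower mean in KO, with a median log2 difference of 3.36e-05. All genes tested had a higher mean in 43.1% and a median of -0.03. Of the 8 assembly factors 4 were higher and 4 lower, with a median of -0.04. A difference of a given size could be missed: the 95% interval of the log2 difference extended 0.48 to either side in the median member and lay wholly within 1.5-fold for 16 members and within 2-fold for 39.

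The count of subunits with a higher mean in KO turned on single arrays. Leaving out wild-type replicate 1 gave 26 of 34 and leaving out KO replicate 2 gave 25, whereas the count was 9 when wild-type replicate 2 was dropped and 8 when KO replicate 1 was. The median log2 difference was 0.16, 0.14, -0.17 and -0.18 in these cases. Of all genes, 43.75%, 44.13%, 42.32% and 43.71% had a higher mean in KO, in the same order. With the arrays brought to 1 median, 21 of 34 subunits and 49.8% of all genes were higher. The group of subunits as a whole thus had no direction that held across these settings.

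**Figure D1:**
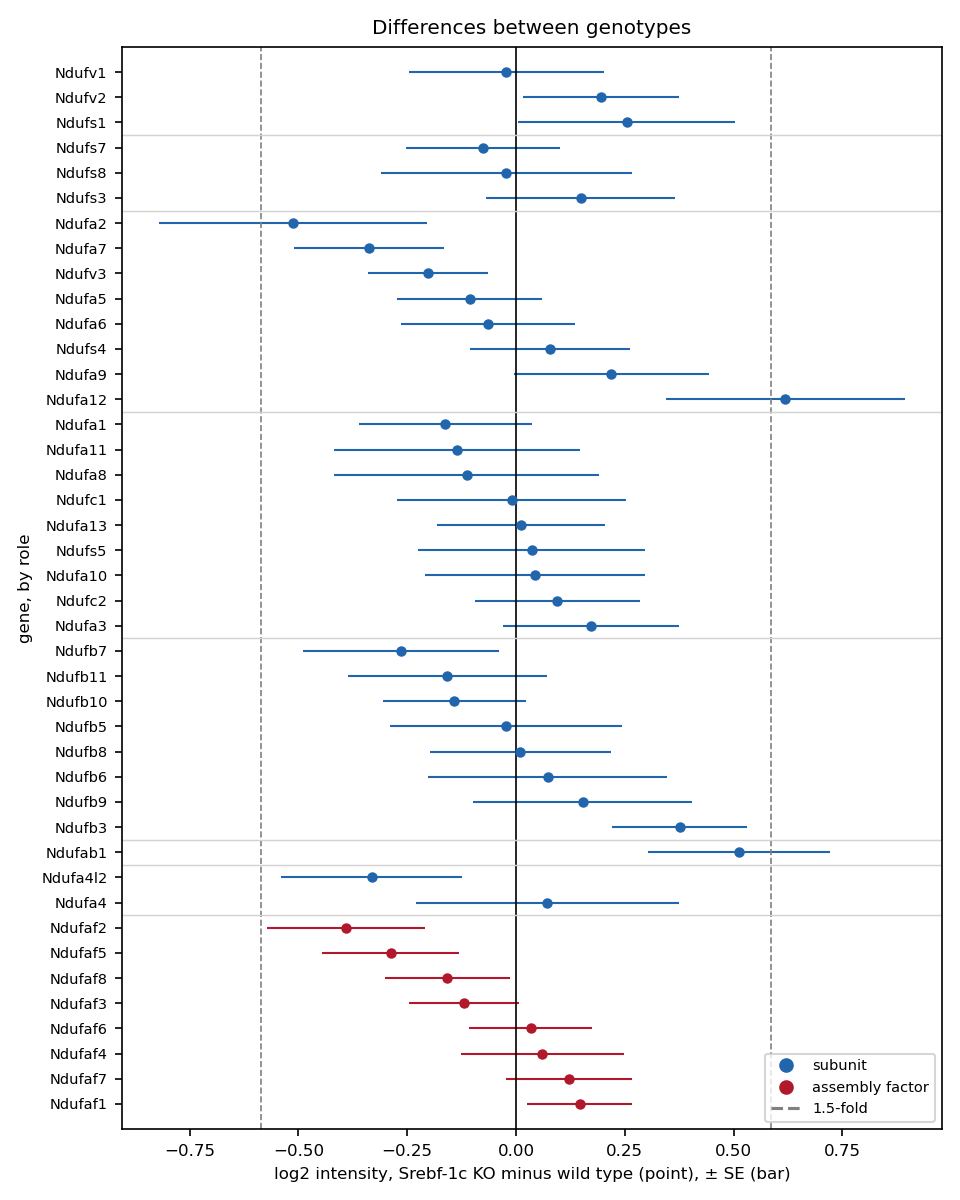
Log2 intensity in Srebf-1c KO minus wild type for 42 complex I genes, grouped by role (vertical axis), with points for the difference, bars for its SE and dashed lines at 1.5-fold. Subunits, 17 above and 17 below 0, run from -0.51 to 0.62, and assembly factors from -0.39 to 0.15. Of all genes 43.1% lie above 0. With the arrays brought to 1 median, 21 subunits and 49.8% of all genes lie above 0.

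In the N module, the core subunits carry the flavin and the iron-sulfur clusters that take electrons from NADH. Ndufv1, which binds NADH and the flavin, stood at 10.95, 10.34 and 10.81 for wild type against 11.06, 10.45 and 10.53 for KO. Ndufv2, its partner with an iron-sulfur cluster, stood at 11.65, 11.44 and 11.61 for wild type against 12.07, 11.43 and 11.77 for KO. Ndufs1, the largest subunit, stood at 9.74, 9.16 and 9.64 for wild type against 10.24, 9.40 and 9.67 for KO. In all 3 genes KO replicate 1 was the highest array and replicate 2 of either genotype was the lowest, so the groups overlapped. Their log2 differences were -0.02 ± 0.22 (SE) for Ndufv1, 0.20 ± 0.18 for Ndufv2 and 0.25 ± 0.25 for Ndufs1, and limma gave an adjusted p of 0.909 or more.

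The Q module core passes electrons on to ubiquinone. Ndufs3, a structural core subunit, stood at 8.55, 8.09 and 8.49 for wild type against 8.90, 8.17 and 8.50 for KO. Ndufs7, which holds the last iron-sulfur cluster before ubiquinone, stood at 12.70, 12.26 and 12.68 for wild type against 12.72, 12.28 and 12.42 for KO. Ndufs8, which holds a further pair of clusters, stood at 10.69, 9.81 and 10.34 for wild type against 10.76, 9.94 and 10.07 for KO. Again KO replicate 1 was highest and wild-type replicate 2 lowest in each. Their differences of 0.15 ± 0.22, -0.07 ± 0.18 and -0.02 ± 0.29 (SE) were smaller than the spread between replicates (limma adjusted p of 0.952 or more).

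Accessory subunits of the peripheral arm held the largest differences in both directions, and 3 of 8 were higher in KO. Ndufa12 stood at 8.27, 7.63 and 8.52 for wild type against 8.97, 8.33 and 8.97 for KO, a difference of 0.62 ± 0.27 (SE), or 1.54-fold (limma adjusted p = 0.858). Its KO replicate 2 lay below wild-type replicate 3, so the groups overlapped. The dimmer probe set of Ndufa12 read 7.59, 7.21 and 7.83 for wild type against 7.51, 7.25 and 7.46 for KO, a difference of -0.14 ± 0.18, so the probe sets opposed each other. Averaged, they gave 0.24 ± 0.22. RefSeq lists pseudogenes of Ndufa12 and of Ndufab1, whose transcripts the probes of these genes may share. The brighter probe set met the study's criterion in 6 of the 18 other settings, among them the fits with array weights, with the arrays brought to 1 median, after quantile normalization and when KO replicate 2 or wild-type replicate 3 was left out, but not in the fit reported.

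At the other end, Ndufa2, a small thioredoxin-like subunit, stood at 10.05, 8.80 and 9.35 for wild type against 9.17, 8.79 and 8.70 for KO. Its wild-type values spread over more than 2-fold, with replicate 1 far above the others, and the difference of -0.51 ± 0.31 (SE) did not pass (limma adjusted p = 0.877). Leaving out wild-type replicate 1 gave -0.19, and leaving out wild-type replicate 2 gave -0.81, which met the study's criterion, as did the -0.67 found with the muscle score as a covariate. Ndufa7 stood at 8.88, 8.43 and 8.63 for wild type against 8.55, 8.10 and 8.29 for KO, a difference of -0.34 ± 0.17. Ndufa9, a subunit near the ubiquinone site that belongs to a dehydrogenase-like family, stood at 10.69, 10.21 and 10.32 for wild type against 11.06, 10.32 and 10.50 for KO, a difference of 0.22 ± 0.22. Groups overlapped for each of these. The other 4 genes of this arm, Ndufv3, Ndufa5, Ndufa6 and Ndufs4, had differences from -0.20 to 0.08.

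Accessory subunits of the membrane arm had a narrower range of differences. In its proximal part, 5 of 9 were higher in KO, and all differences lay between -0.16 (Ndufa1) and 0.17 (Ndufa3). Ndufs5 departed from the rest of this part by being lowest on wild-type replicate 3 and highest on wild-type replicate 2, with 7.03, 7.34 and 6.49 for wild type against 7.24, 6.58 and 7.16 for KO. Its probe set lay at percentile 43.2 of intensity, and it was picked for its pattern after its values were seen. The second probe sets of Ndufa8 and Ndufa11 gave differences of -0.24 and -0.14, against -0.11 and -0.14 for the brighter ones, so there the probe sets had the same sign.

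In the distal part, 4 of 8 were higher in KO. Ndufb3 stood at 7.91, 7.92 and 7.85 in wild type, the narrowest wild-type spread among the members (SD 0.04), and at 8.30, 7.99 and 8.52 in KO. Every KO array lay above every wild-type array, and the difference was 0.38 ± 0.15 (SE), or 1.30-fold (limma adjusted p = 0.850). Ndufb7, a subunit facing the intermembrane space, stood at 9.44, 8.83 and 9.23 for wild type against 9.24, 8.55 and 8.92 for KO, a difference of -0.26 ± 0.22 with overlapping groups. The other 6 ran from -0.16 (Ndufb11) to 0.15 (Ndufb9).

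Ndufab1 is the mitochondrial acyl carrier protein, which serves mitochondrial fatty acid synthesis as well as complex I. It stood at 7.43, 6.85 and 7.23 for wild type against 8.02, 7.58 and 7.45 for KO. Here too every KO array lay above every wild-type array, though KO replicate 3 and wild-type replicate 1 were only just apart. The difference was 0.51 ± 0.21 (SE), or 1.43-fold, with a 95% interval from 0.02 to 1.00 before any adjustment (limma adjusted p = 0.850). Across the 18 other settings the difference ranged from 0.34 to 0.64. Its sign could not turn when an array was left out, since the groups did not overlap, and several settings change only the test. Ndufab1 met the study's criterion when wild-type replicate 1 or KO replicate 3 was left out. Ndufb3 and Ndufab1 were the 2 members of 42 with KO wholly above wild type, 4.76%, where all genes had 4.08%. None of the 42 had KO wholly below wild type, which 8.21% of all genes had.

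Ndufa4 carries a complex I name but is now counted as a subunit of cytochrome c oxidase, and its relative Ndufa4l2 is known as a hypoxia-induced gene. Ndufa4 stood at 10.35, 9.47 and 9.89 for wild type against 10.48, 9.49 and 9.95 for KO, with a difference of 0.07 ± 0.30 (SE). Ndufa4l2 stood at 7.88, 7.56 and 7.16 for wild type against 7.43, 7.18 and 7.0 for KO, with a difference of -0.33 ± 0.21. Ndufa4 was highest on KO replicate 1 and lowest on wild-type replicate 2, as the Q module core was, whereas Ndufa4l2 was lowest on replicate 3 of either genotype. Neither passed (limma adjusted p of 0.887 or more), and the median difference of the remaining 32 subunits was the same as with them, 3.36e-05.

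The assembly factors act at different steps. Ndufaf1 belongs to the intermediate that builds part of the membrane arm and stood at 8.60, 8.57 and 8.77 for wild type against 8.90, 8.71 and 8.77 for KO. Ndufaf3 and Ndufaf4 work together on the Q module. Ndufaf3 stood at 9.15, 9.41 and 9.44 for wild type against 9.27, 9.19 and 9.17 for KO, and Ndufaf4 at 8.30, 7.78 and 8.02 for wild type against 8.36, 7.86 and 8.05 for KO. Ndufaf4 was highest on replicate 1 and lowest on replicate 2 in each genotype, while Ndufaf3 was lowest on wild-type replicate 1. Differences were 0.15 ± 0.12 (SE) for Ndufaf1, -0.12 ± 0.13 for Ndufaf3 and 0.06 ± 0.19 for Ndufaf4.

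Ndufaf5 hydroxylates the core subunit Ndufs7, Ndufaf8 is its partner, and Ndufaf7 is a methyltransferase. Ndufaf5 stood at 7.84, 7.56 and 7.40 for wild type against 7.50, 7.23 and 7.20 for KO, and Ndufaf8 at 8.89, 8.75 and 8.60 for wild type against 8.76, 8.40 and 8.61 for KO. Both had lower means in KO with overlapping groups, by -0.29 ± 0.16 and -0.16 ± 0.14 (SE). Ndufaf7 stood at 8.06, 8.30 and 8.34 for wild type against 8.55, 8.21 and 8.30 for KO, a difference of 0.12 ± 0.14 that rests on KO replicate 1. Without that array it was 0.02.

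Ndufaf2, a paralog of Ndufa12 that is bound late in assembly before Ndufa12 takes its place, had the largest difference among the factors. It stood at 7.54, 7.50 and 6.93 for wild type against 7.01, 6.89 and 6.89 for KO, a difference of -0.39 ± 0.18 (SE), or 0.763 of the wild-type level (limma adjusted p = 0.867). Wild-type replicate 3 lay among the KO arrays. Without it the difference was -0.59 and met the study's criterion. Ndufaf6 stood at 7.69, 7.72 and 7.51 for wild type against 7.89, 7.62 and 7.52 for KO, a difference of 0.03 ± 0.14. The brighter probe set of Ndufa12 and that of Ndufaf2 thus had differences of opposite sign, 0.62 and -0.39, and neither passed the test. The dimmer probe set of Ndufa12, at -0.14, had the same sign as Ndufaf2.

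Averaged as a group, the subunits differed more by array than by genotype. Of 34 subunits, 32 were highest on replicate 1 of wild type or of KO and 27 were lowest on replicate 2 of wild type or of KO. The share of all genes with this pattern was not counted. Averaged over subunits, the log2 intensity relative to each gene's mean was 0.26, -0.29 and 0.01 for wild type against 0.32, -0.25 and -0.05 for KO. The median over all genes on this scale was 0.016, 0.015 and 0.011 for wild type against -0.016, -0.023 and -0.015 for KO. Normalization across arrays keeps this median nearly level, so it gives no reference for how far a set of genes spreads. For the subunits, wild-type replicates 1 and 2 were the highest and lowest of their group. The gap between them was far wider than that between the genotype means, 0.01. The latter averages differences of both signs, from -0.51 to 0.62 per gene, which cancel each other. The summed intensity of the skeletal muscle markers had the same order of replicates within each genotype: replicate 1 highest, replicate 3 between and replicate 2 lowest. With the muscle score as a covariate, 12 of 34 subunits and 42.07% of all genes had a higher fitted mean in KO. The median difference of the subunits was then -0.10. Adipocyte markers were ordered otherwise, highest on wild-type replicate 3 and KO replicate 2. As a mean of centred log2 values the muscle markers stood at 0.85, -0.94 and -0.31 for wild type against 0.34, -0.39 and 0.47 for KO, so that on this scale KO replicate 3 was above KO replicate 1. The part of muscle or other tissue in the spread of the subunits was not tested.

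**Figure D2:**
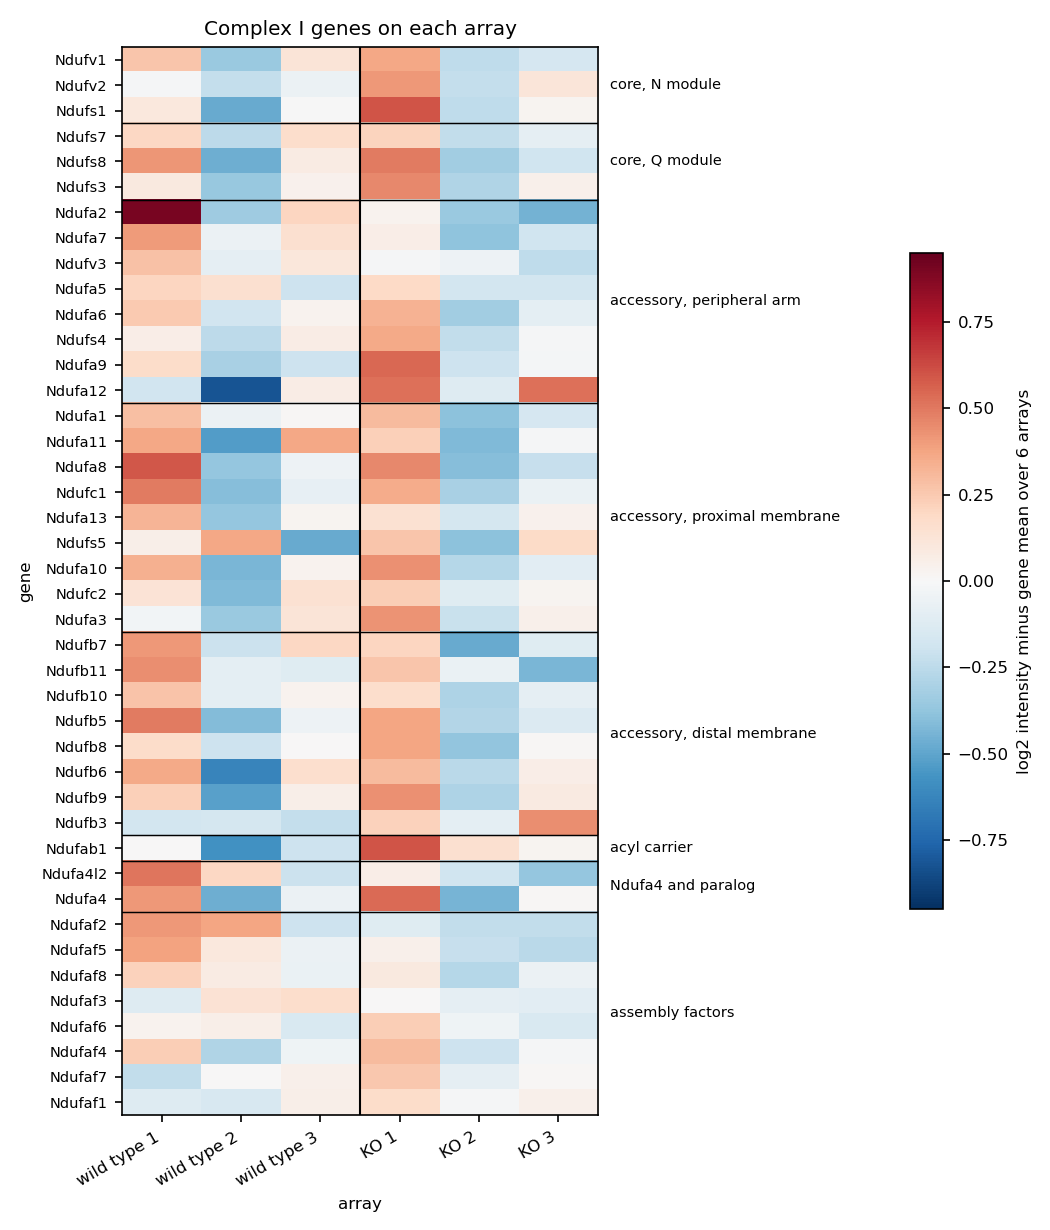
Log2 intensity of 42 complex I genes (rows, grouped by role) on 6 arrays (columns), minus each gene's mean over the arrays, red above and blue below it. Wild-type replicate 1 and KO replicate 1 are red and replicate 2 of each genotype is blue for most of the 34 subunits, while the 8 assembly factors are paler and more mixed.

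Assembly factors showed less of this spread. The SD between replicates, pooled over both genotypes, had a median of 0.32 over the 34 subunits, from 0.15 for Ndufv3 to 0.48 for Ndufa2, and of 0.16 over the 8 factors, from 0.10 for Ndufaf1 to 0.26 for Ndufaf4. All genes had a median of 0.20. From lowest to highest array the subunits spanned a median of 0.85 and the factors 0.49. Among the 11090 genes of all those tested with the higher signal, the median SD was 0.17. Probe sets of the factors had lower signal, at a median percentile of 61.7 of intensity against 80.9 for the subunits. The part of signal in the spread was not tested.

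Averaged in the same way, the factors stood at 0.10, 0.04 and -0.03 for wild type against 0.12, -0.14 and -0.09 for KO. Like the subunits they were highest on KO replicate 1, but only 3 of the 8 were lowest on replicate 2 of either genotype. Subunits minus assembly factors came to 0.16, -0.33 and 0.04 for wild type against 0.20, -0.11 and 0.04 for KO. The groups overlapped, and the difference between genotype means, 0.09, was smaller than the SD between replicates of 0.25 in wild type and 0.15 in KO. Without wild-type replicate 2, which had the lowest value, it was -0.06. No difference between subunits and assembly factors in their change with genotype was detectable beyond the replicate spread.

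**Figure D3:**
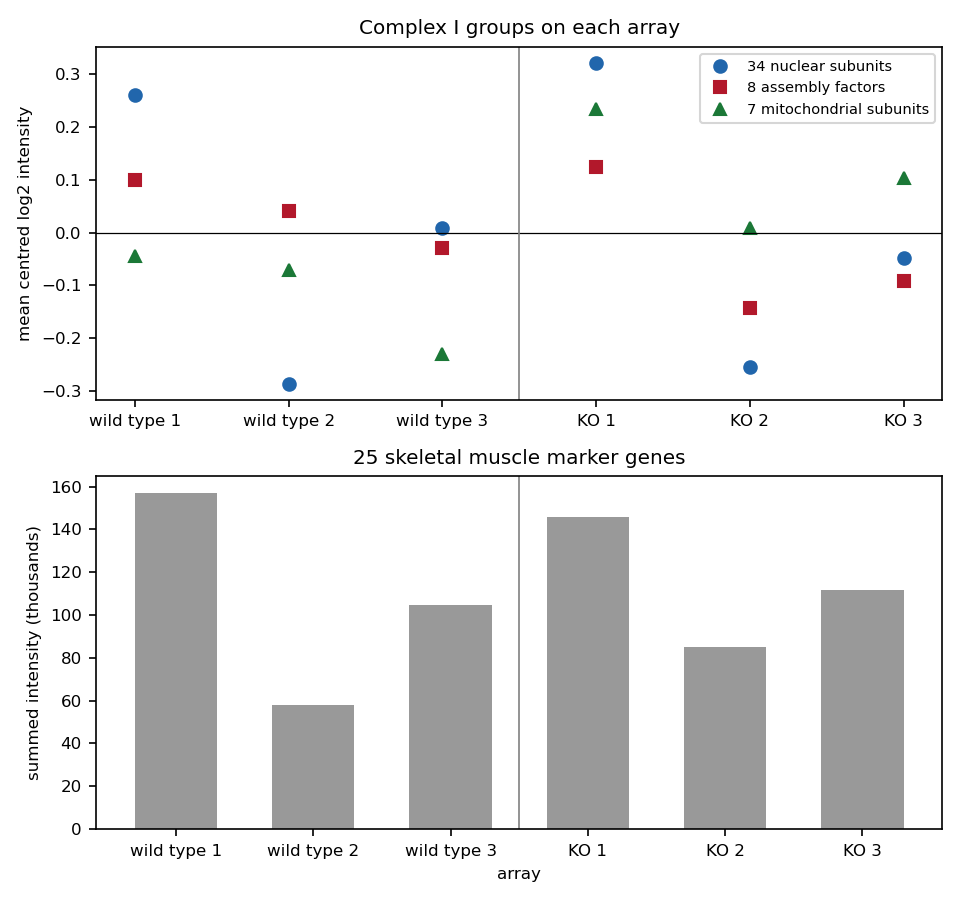
Upper panel, the mean over genes of log2 intensity minus each gene's mean, on each array, for nuclear subunits, assembly factors and mitochondrially encoded subunits; lower panel, summed linear intensity of 25 skeletal muscle markers. Nuclear subunits run from -0.29 on wild-type replicate 2 to 0.32 on KO replicate 1, and the muscle sum has the same order of replicates within each genotype. On the scale of the upper panel the muscle markers, not drawn there, are higher on KO replicate 3 (0.47) than on KO replicate 1 (0.34).

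Assembly factors with other names were measured for 13 genes, of which 6 were higher and 7 lower in KO, with a median of -0.0049 and 0 past the study's criterion. Tmem126a, known for work on the distal membrane arm, stood at 8.72, 8.0 and 8.46 for wild type against 9.09, 8.38 and 8.62 for KO, and its difference of 0.30 ± 0.24 (SE) was the largest of the 13. Tmem186, of the membrane arm intermediate that also holds Ndufaf1, had the lowest, -0.16 ± 0.15. Among 8 regulators of mitochondrial gene expression 3 were higher and 5 lower, with Esrra, the nuclear receptor ERR alpha, at 0.36 ± 0.25 and Tfb2m, a mitochondrial transcription factor, at 0.30 ± 0.18. The lowest was Ppargc1b, a coactivator of ERR alpha, at -0.28 ± 0.19, and Nrf1, whose motif is described above, stood at -0.08 ± 0.11. None of these passed an adjusted p of 0.05.

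The core subunits encoded in mitochondrial DNA, which form the membrane core with its proton channels, were listed separately from the members. All 7 had a higher mean in KO, from 0.08 to 0.36 with a median of 0.25, except that ND6 was at -0.19 without KO replicate 1 and at -0.04 without wild-type replicate 3. ND4 had the highest signal on all 6 arrays, so repeated quantile normalization sets it to 1 value and gives no difference for it. In 5 of the 7, every KO array lay above every wild-type array, against 4.08% of all genes. Mitochondrial genes are transcribed as long shared precursors, so the 7 are not independent. None passed (smallest limma adjusted p = 0.850), and 0 of 7 met the study's criterion.

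ND3 stood at 13.39, 13.42 and 13.46 for wild type against 13.91, 13.61 and 13.82 for KO, a difference of 0.36 ± 0.12 (SE), or 1.28-fold. ND4L stood at 13.45, 13.67 and 13.53 for wild type against 13.90, 13.79 and 13.87 for KO, a difference of 0.30 ± 0.12. These had an unadjusted limma p of 0.0225 and 0.0346. ND1, ND2 and ND5 followed with differences of 0.25, 0.26 and 0.24 and no overlap between the groups. ND4 and ND6 overlapped, and ND6, which alone lies on the other strand of the mitochondrial genome, ranged from 8.70 to 9.78 over the arrays.

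Averaged over the 7 genes, replicate 1 was the highest array within each genotype, as for the nuclear subunits. Wild-type replicate 1 still lay below every KO array: the means of the 7 genes were -0.05, -0.07 and -0.23 for wild type against 0.23, 0.01 and 0.10 for KO. Of the 7 genes only ND6, at percentile 76.6 of intensity, was highest on replicate 1 in both genotypes. KO replicate 3 was the highest KO array for ND1, ND2, ND4 and ND5. With the muscle score as a covariate the median difference was 0.24 and all 7 stayed higher. After repeated quantile normalization the 6 genes other than ND4 had differences from 0.13 to 0.25, with a median of 0.16.

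**Figure D4:**
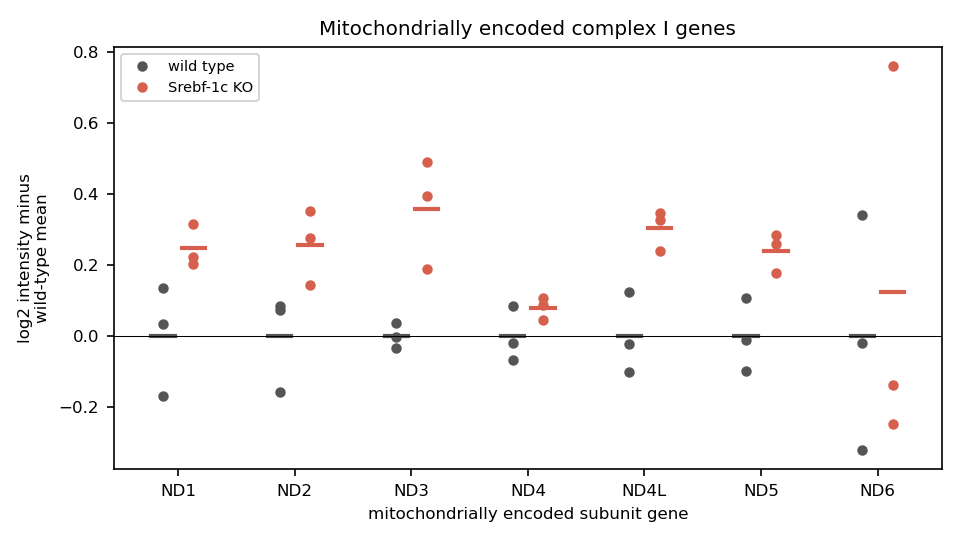
Log2 intensity minus the wild-type mean of each gene for 7 mitochondrially encoded complex I genes (horizontal axis), with a point per array and a bar at the mean of 3 arrays per genotype. KO points lie wholly above wild type for ND1, ND2, ND3, ND4L and ND5 and overlap for ND4 and ND6; the KO mean of ND6 is below the wild-type mean without KO replicate 1 or wild-type replicate 3.

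The other respiratory complexes were counted in the same way. Higher means in KO were found for 4 of 4 genes of complex II and 6 of 8 of complex III. In complex IV they were found for 4 of 9 and in complex V for 9 of 14. Medians were 0.12, 0.16, -0.02 and 0.07 in this order. Of all genes 43.1% had a higher mean in KO, and 49.8% with the arrays brought to 1 median. Counts for these complexes with an array left out are not given here. The study's criterion was met by 2 of the 9 complex IV genes and by none of the genes of the other 3. Of all genes 1.19% met it. The 2 were Cox7b, at 1.83 ± 0.30 (SE), and Cox5b, at 1.05 ± 0.37, and neither passed (limma adjusted p = 0.850 for each). Like the complex I subunits, the genes of each of these complexes had their highest mean on KO replicate 1 and their lowest on wild-type replicate 2. Whether complex I differed from these complexes was not tested.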

How the data were processed

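Each array's deposited column holds linear probe set intensities. Per the series' design text the authors computed them with RMA in TAC and the Partek software, and the submitters' processing notes name the build mm8. RMA corrects for background, normalizes across arrays and can compress differences of dim probe sets. Here they were turned to log2 without a pseudocount. Probe sets with exactly 1 gene symbol in the platform annotation were kept, 23521 of 41077, which gave 22180 genes, and all 42 members matched a RefSeq gene by Entrez identifier. Each gene was fitted as KO minus wild type with limma 3.58.1 in R 4.3.3, and p-values were adjusted by Benjamini-Hochberg over all of them. SEs come from this fit. Percentiles of intensity describe the signal of probe sets and set no gene's level against another's.

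Per-array values are given for the nuclear core subunits, every Ndufaf gene, Ndufa4, Ndufa4l2, Ndufab1 and the 6 members with the largest difference in each direction. A listed gene is not reported here. The members and lists were chosen with earlier results of these data known. In simulated data of 22180 genes a true 1.5-fold change was called in 5.08% of genes, a 2-fold change in 62.2% and a 4-fold change in 96.9%. These shares depend on how many genes were changed, and the simulated noise was independent between genes. The subunits varied together over the arrays, with a median SD of 0.32 against 0.20 for all genes. The shares therefore need not hold for the members. The number of arrays limits the precision. Alternatives were a replicate block, the ANOVA of the study, other priors, weights, filters, scalings and probe set rules, muscle or adipocyte scores as covariates and leaving out each array.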

Additional observations from a re-analysis of the deposited data

How the results depend on the processing

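The number of members past an adjusted p of 0.05 was 0 under all 18 alternatives and with a limit of 0.10, with a smallest adjusted p of 0.642. The number past the study's criterion was 0, and it was 1 with array weights, with the arrays brought to 1 median, after quantile normalization and with the replicate block (Ndufa12 in each), and 1 with the muscle score (Ndufa2). With 1 array left out it ran from 0 to 2, the latter without wild-type replicate 3. With a fold limit of 2 it was 0. The number of all genes past an adjusted p of 0.05 was 1 (Srebf1), and 0 with the ANOVA, either marker score, the arrays at 1 median, quantile normalization, the replicate block or every probe set tested, and 0 to 1 with an array left out, the 1 being Vmn1r157 and not Srebf1. Why was not tested, and the fits with an array left out also had fewer arrays. The median of the subunits ran from -0.18 to 0.16, that of the factors from -0.11 to 0.03, and subunits minus factors from -0.06 (without wild-type replicate 2) to 0.19. The sign was the same in every setting for 21 members, 9 higher and 12 lower in KO, 15 of them subunits. In several settings this was fixed in advance. The ANOVA, the other prior, the replicate block, the filters and the test of every probe set leave the differences unchanged. Same-numbered samples share only a number, so the replicate block pairs nothing known. Their deviations from the group means correlated at 0.117, 0.0117 and -0.233. Pairs with unlike numbers ran from -0.263 (wild-type replicate 1 with KO replicate 2) to 0.281 (wild-type replicate 3 with KO replicate 2). Depth does not apply to arrays, and 2 subunits and 1 factor lay in the dimmer 50% of genes.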
